A study of Homo sapiens with 6 samples.

Results

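The mitochondrially encoded transcripts are all genes whose symbol starts with MT-, and 37 of the 62700 genes in the deposited gene table met that rule. They were 13 protein-coding genes, 2 rRNA genes and 22 tRNA genes, and the identifier of each matched its GENCODE 29 entry. RNA with poly(A) tails was sequenced from TCam-2, a cell line established from a human seminoma of the testis, to find genes that change when RBMXL3 is overexpressed. There were 3 groups of 2 libraries each. WT cells were not transduced, GFP cells were transduced with GFP_FLAG, a FLAG-tagged green fluorescent protein, and RBMXL3 cells were transduced with RBMXL3_FLAG, a FLAG-tagged RNA-binding protein related to RBMX. All groups were the same line in the same medium with serum, and WT and GFP were the negative controls. The promoter of the transgenes, and whether the transduced cells were a pool or a clone, are not given in the sources used here. The labels do not say that the replicates came from separate cultures, so the p-values measure only the spread between these libraries.

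The human mitochondrial genome is a small circle that is copied into long RNAs from both strands. In these long RNAs the tRNAs sit between most of the mRNAs and rRNAs, and their excision frees the neighbouring RNAs. The mRNAs encode core subunits of respiratory chain complexes I, III and IV and of the ATP synthase (complex V), the rRNAs build the mitochondrial ribosome, and every protein needed to copy, process or destroy these RNAs is encoded in the nucleus. Most of the mRNAs receive a short poly(A) tail, the rRNAs a shorter one, and mature tRNAs end in CCA, which bears on how much of each class a library of poly(A) RNA can hold.

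The sequences of 2 overlapping gene pairs are shown first, because the members that differed between the groups against both controls were the upstream genes of these pairs. In each pair a single mRNA carries both reading frames, and a read inside the overlap can belong to either gene. MT-ATP8 (chrM:8366-8572, plus strand, 207 bases) shares its last 46 bases with MT-ATP6 (chrM:8527-9207, plus strand), and MT-ND4L (chrM:10470-10766, plus strand) shares its last 7 with MT-ND4 (chrM:10760-12137, plus strand). The sequences were taken from the GENCODE 29 transcripts (GRCh38) and are written 5′ to 3′, with the shared bases in capitals, as the whole of MT-ATP8, the first 60 bases of MT-ATP6, the last 60 of MT-ND4L and the first 40 of MT-ND4.
MT-ATP8: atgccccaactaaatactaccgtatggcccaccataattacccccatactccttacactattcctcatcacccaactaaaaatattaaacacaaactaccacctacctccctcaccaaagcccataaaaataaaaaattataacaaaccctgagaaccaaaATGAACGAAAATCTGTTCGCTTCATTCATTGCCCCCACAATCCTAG
MT-ATP6: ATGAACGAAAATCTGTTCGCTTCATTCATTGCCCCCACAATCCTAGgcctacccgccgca
MT-ND4L: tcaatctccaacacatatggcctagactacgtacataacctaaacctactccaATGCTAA
MT-ND4: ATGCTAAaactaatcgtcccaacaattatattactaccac
In both pairs the capitals begin with the ATG of the downstream frame. The other overlap between members was 1 base, between MT-ATP6 and MT-CO3.

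The libraries held between 17685680 and 29318007 recovered reads, and both RBMXL3 libraries were shallower than the 4 controls. RBMXL3 itself had 0 reads in the 4 control libraries and 84 and 68 reads in the RBMXL3 libraries. All 12 seminoma and germ cell markers listed were detected, and their summed normalised reads lay between 118563 and 135963. Single markers of this list moved in both directions. POU5F1 (41233 and 40115, at most 34996 in the controls) and NANOS3 (153 and 149, at most 113) were higher in both RBMXL3 libraries than in any control. KIT (1411 and 1429, at least 1802 in the controls), NANOG (16054 and 16106, at least 17582), LIN28A, PRDM1 and PDPN were lower in both. The others of this list overlapped with the controls. Summed markers of other cells were lower, at 30.5 to 82.3 normalised reads for leukocytes (higher in both RBMXL3 libraries than in the controls, with CD3E at 0 throughout and PTPRC at no more than 1 read), 146 to 232 for endothelium and 9105 to 14357 for fibroblasts, most of which came from COL1A2. Of the 8 fibroblast markers, COL3A1 (503 and 490, at most 214 in the controls) and LUM (425 and 421, at most 179) were higher in both RBMXL3 libraries than in any control. So was COL1A1, by less (399 and 407, at most 384). PDGFRA was lower in both (3.86 and 3.21, at least 5.03 in the controls), and the other fibroblast markers overlapped with the controls. Of all tested genes, 22.5% lay above all 4 controls and 23.6% below. The summed embryonal carcinoma markers were lowest in WT, at 874 and 966, and lay between 1187 and 1554 in the other libraries. The part of these other markers in the results was not tested. The labels name no batch or date, so how a library was prepared and its group cannot be told apart.

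Mitochondrial genes took 3.02% and 2.33% of the reads in WT and 1.31% and 2.77% in GFP, with 2.42% and 2.02% in RBMXL3. GFP replicate 1 was the lowest of the 6 libraries, and the RBMXL3 libraries lay inside the range of the controls. The groups overlapped in every pairing, and the mean share in RBMXL3 minus that of the 4 controls was -0.14 percentage points (exact permutation test, two-sided, p = 0.867, where the smallest p that 2 libraries against 4 allow is 0.0667). With 2 libraries against 2 no p below 0.333 is possible, and the exact permutation test gave p = 1 between RBMXL3 and GFP and p = 0.667 between WT and each of the others. In the TPM of the authors' transcript table, a measure of abundance corrected for length and library total, summed here per gene, the share was higher in every library, at 5.68% and 4.32% in WT and 2.28% and 4.71% in GFP, compared with 4.97% and 4.21% in RBMXL3, and GFP replicate 1 was again the lowest. In these bulk libraries, fewer cells with a transcript and less of it per cell cannot be told apart.

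The 2 GFP libraries differed from each other in every tested member. Over the 16 members tested, the log2 ratio of replicate 1 to replicate 2 had a median of -1.17 in GFP, 0.37 in WT and 0.27 in RBMXL3. In GFP every tested member was lower in replicate 1, from -1.82 for MT-ND3 to -0.25 for MT-ND4L. The median absolute log2 difference between the GFP replicates over all tested genes was 0.18, so the members differed between them more than the median gene did.

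**Figure D1:**
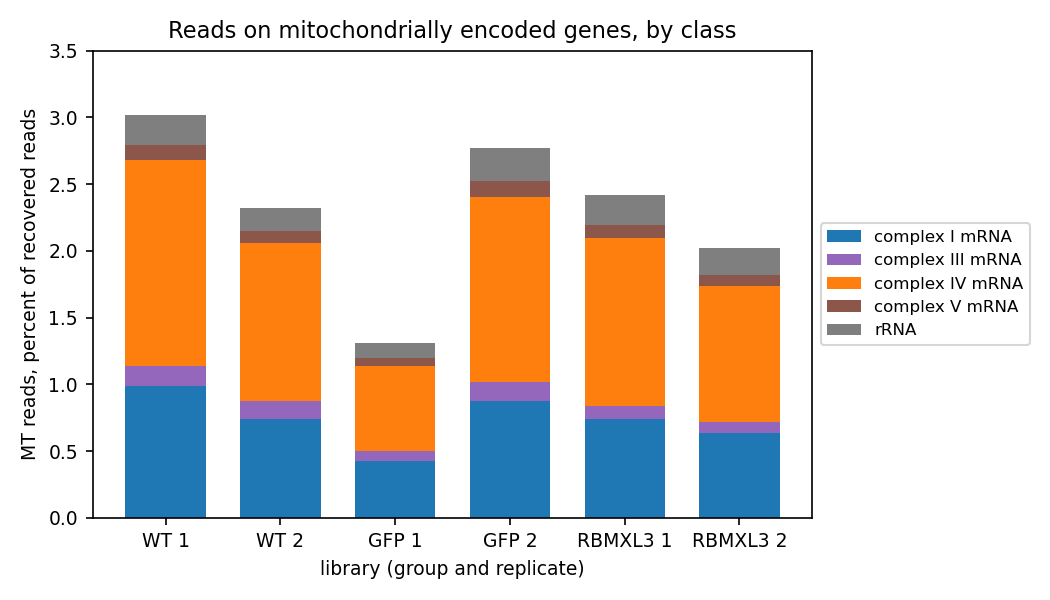
Percent of the recovered reads of each of the 6 libraries that fell on mitochondrially encoded genes, stacked by the complex that the mRNAs encode and the rRNAs (tRNAs are too few to be seen). GFP replicate 1 reached 1.31%, and the other 5 libraries lay between 2.02% and 3.02%.

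Levels per length were compared between genes as normalised reads per kilobase, averaged over the 6 libraries. The highest were the mRNAs of the cytochrome c oxidase core, the terminal enzyme of the chain: MT-CO2 (121212), MT-CO1 (94077) and MT-CO3 (66220). MT-CO2 was above MT-CO1 in each library. MT-ND4 (58487) and MT-ATP6 (32414) followed, and a middle group lay close together: MT-ND4L (26997), MT-ND1 (26331), the large rRNA MT-RNR2 (24922), MT-CYB (23891), MT-ND2 (23890), MT-ND3 (20330) and MT-ND5 (16371). This is the order of the means: the order inside the middle group differed between libraries, MT-ND4L was above MT-ATP6 in WT replicate 2 and GFP replicate 1, and MT-ND4 was above MT-CO3 in GFP replicate 1. Lowest were the small rRNA MT-RNR1 (7998), MT-ATP8 (4503) and MT-ND6 (667), which is the single mRNA read from the opposite strand. The summed TPM, which is also corrected for length, gave another order below the oxidase mRNAs: MT-ND4L (4178) was above MT-ND4 (3521) and MT-ATP6 (3137), and MT-ATP8 (2985) was above MT-ND3 (2483), MT-ND2 (2020), MT-ND1 (1896), MT-RNR2 (1506), MT-CYB (1473) and MT-ND5 (816). Since the libraries were made from poly(A) RNA, the levels of the rRNAs are those of molecules that were captured as such.

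**Figure D2:**
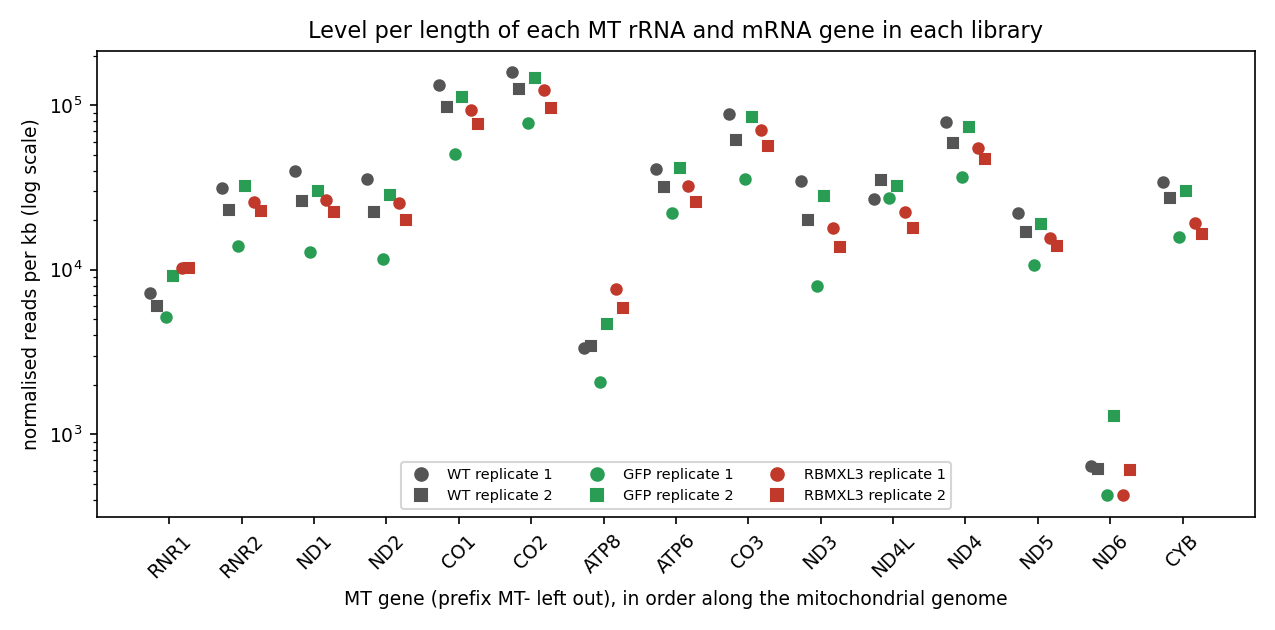
Normalised reads per kilobase (log axis) of the 15 mitochondrial rRNA and mRNA genes in each library, in order along the mitochondrial genome. GFP replicate 1 is lowest or close to it for most genes, and the RBMXL3 libraries stand above all controls at RNR1 and ATP8 and below all controls at ND4L.

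Against GFP, the RBMXL3 libraries had more MT-ATP8 and less MT-ND4L, and the other 14 tested members did not pass the test. Only 16 of the 37 members passed the filter on low values: the 13 mRNAs, both rRNAs and MT-TT. Of these, 2 were called (limma, Benjamini-Hochberg adjusted p under 0.05 over all genes), beside 20.9% of all 14292 genes tested. The 1 higher call stands beside 10.5% of all genes and the 1 lower call beside 10.4%. The median log2 change of the members was 0.06, with 10 above 0 and 6 below, where the median over all genes was 0.00. In 3 of 16 members both RBMXL3 libraries lay outside both GFP libraries, as they did in 61.7% of all genes. The members not called had log2 changes from -0.52 to 0.58.

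That count rested on which GFP library was kept. Without GFP replicate 1, 8 members were called, 1 higher and 7 lower in RBMXL3, when 3519 of 14212 genes were called in all. Without GFP replicate 2, 12 were called, 11 higher and 1 lower, when 4304 of 14189 genes were called in all.

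Against WT, most members were lower in RBMXL3, and 4 passed the test: MT-ATP8 and MT-RNR1 rose, and MT-CYB and MT-ND4L fell. Those 4 of 16 stand beside 29.9% of all genes called in this comparison, with 14.6% higher and 15.3% lower. The median of the members was -0.38, with 14 of 16 below 0, where the median over all genes was -0.01. Both RBMXL3 libraries lay below both WT libraries in 9 of 16 members, as in 38.3% of all genes, and above them in 2, and 73.4% of all genes lay outside on one side or the other. Without WT replicate 1 the count was 1 and the median -0.20, and without WT replicate 2 they were 0 and -0.57. Without RBMXL3 replicate 1 the count was 2, and without RBMXL3 replicate 2 it was 1. Without either GFP library, which changes only the estimate of the spread here, 10 members were called, 2 higher and 8 lower, when 6143 genes were called in all without replicate 1 and 6155 without replicate 2.

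GFP against WT gave 0 called members by limma, beside 3.67% of all genes (1.76% higher and 1.91% lower), and 3 members had an unadjusted p under 0.05. edgeR and DESeq2 on the recovered reads also called 0. The median log2 change was -0.42, with 14 of 16 members below 0. In 1 of 16 the GFP libraries lay outside both WT libraries, as in 48.5% of all genes. Leaving out GFP replicate 2 gave 14 members called lower (2770 genes called in all), and leaving out GFP replicate 1 gave 2 called higher (1139 genes in all), so the direction turned with the library kept.

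Against both controls in the same direction, 2 members were called, beside 13.7% of all genes, with 1 higher (6.88% of all genes) and 1 lower (6.86%). The 2 comparisons share the RBMXL3 libraries. In 3 of 16 members the RBMXL3 libraries lay outside all 4 controls, as in 46.1% of all genes: MT-ATP8 and MT-RNR1 above (22.5% of all genes), and MT-ND4L below (23.6%). The 2 of 16 members called were close to the share of all genes, and the 3 of 16 outside all controls were below it.

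**Figure D3:**
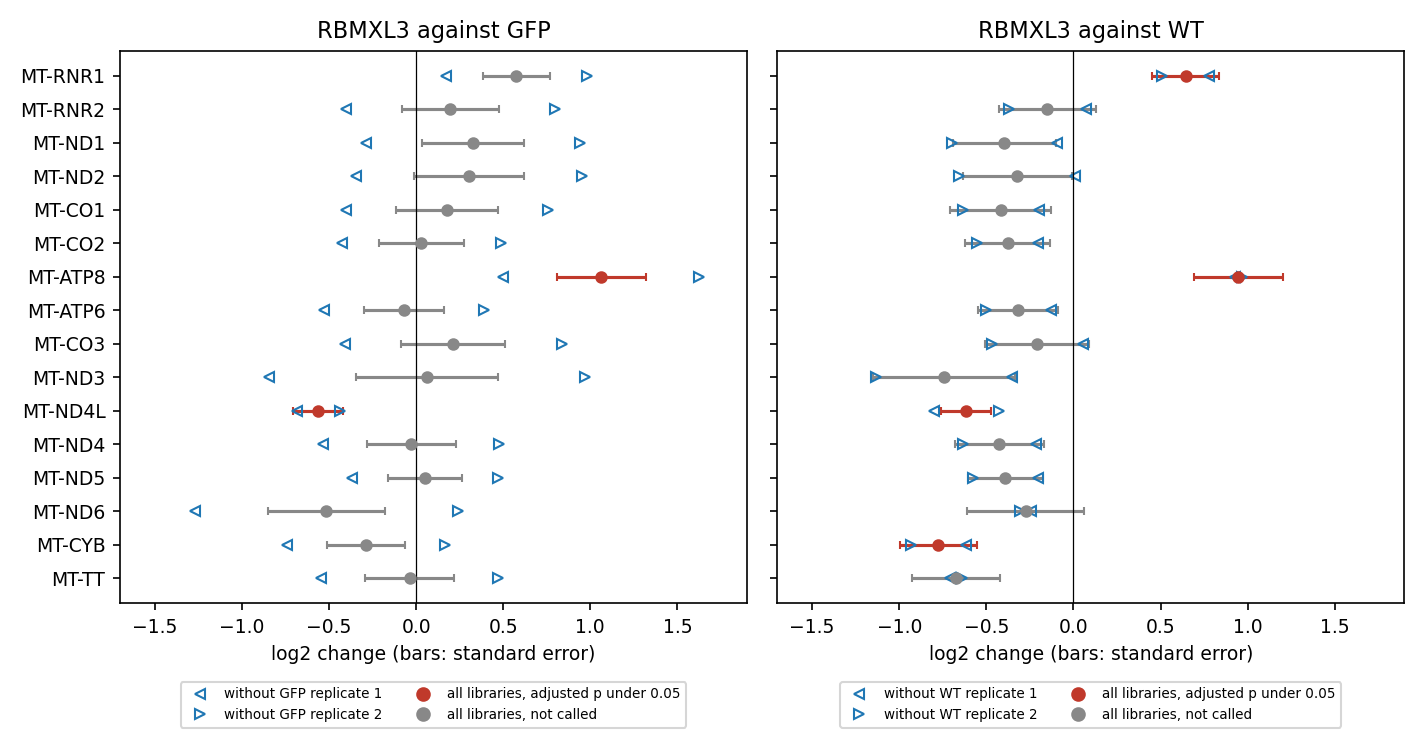
Log2 change of each tested member in RBMXL3 against GFP (left) and against WT (right), with filled points for the fit of all 6 libraries, bars for the standard error and open triangles for the fits without 1 control library. Leaving out 1 or the other GFP library puts most members on opposite sides of 0 on the left, while MT-ATP8 and MT-RNR1 stay above 0 and MT-ND4L below 0 on both sides.

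MT-ATP8 encodes a small subunit of the ATP synthase membrane part. Its normalised reads were 695 and 715 in WT and 431 and 969 in GFP, with 1576 and 1207 in RBMXL3. Both RBMXL3 libraries were above all 4 controls. The log2 change was 1.06 ± 0.26 (SE) against GFP (limma, adjusted p = 0.0129) and 0.95 ± 0.26 against WT (limma, adjusted p = 0.0156). The call was lost with DESeq2 (adjusted p = 0.139 against GFP and 0.113 against WT), with no filter on low values (0.145 and 0.152), in the summed TPM (0.106 and 0.483) and without RBMXL3 replicate 1 (0.0626 and 0.0741), and against WT also without WT replicate 1 (0.132) or 2 (0.0960). Leaving out GFP replicate 1 moved the change against GFP to 0.50, and leaving out GFP replicate 2 moved it to 1.63.

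MT-ATP6, the downstream frame of the same mRNA, encodes the proton channel subunit of the ATP synthase. Its normalised reads were 27917 and 21548 in WT and 15011 and 28395 in GFP, against 21873 and 17699 in RBMXL3. The RBMXL3 libraries lay inside the range of the controls, and the log2 change was -0.07 ± 0.23 against GFP (limma, adjusted p = 0.858) and -0.32 ± 0.23 against WT (limma, adjusted p = 0.313). Its sign against GFP turned when libraries were scaled by the non-mitochondrial total (0.05) and in the summed TPM (0.36).

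A ratio of reads between genes of 1 library does not depend on the scaling between libraries. MT-ATP8 had 2.49 and 3.32 reads per 100 of MT-ATP6 in WT and 2.87 and 3.41 in GFP, compared with 7.20 and 6.82 in RBMXL3. The mean of the RBMXL3 libraries was 2.32 times the mean of the controls, GFP replicate 1 lay with the other controls, and the groups did not overlap (exact permutation test against the 4 controls, two-sided, p = 0.0667, the smallest possible). In the summed TPM the ratio was 95.7 and 73.2 in WT and 40.9 and 71.8 in GFP, with 137 and 127 in RBMXL3, again highest in RBMXL3. The ratio differed widely between the tables, the TPM being also divided by length, and the reason for the gap was not tested. The part of the overlap in the difference between the groups was not tested.

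MT-ND4L encodes a membrane subunit of complex I, the NADH dehydrogenase that feeds electrons into the chain. Its normalised reads were 8021 and 10414 in WT and 8088 and 9597 in GFP, against 6654 and 5335 in RBMXL3. Both RBMXL3 libraries were below all 4 controls, and GFP replicate 1 did not stand apart as it did in other members. The log2 change was -0.56 ± 0.14 against GFP (limma, adjusted p = 0.0164) and -0.62 ± 0.14 against WT (limma, adjusted p = 0.00728). The call was lost against both controls with no filter on low values (adjusted p = 0.131 and 0.0818), in the summed TPM (0.546 and 0.0962) and without RBMXL3 replicate 2 (0.216 and 0.117). It was also lost against GFP with the non-mitochondrial scaling (0.0577) and against WT without WT replicate 2 (0.0950).

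Its partner MT-ND4, which encodes a proton-pumping subunit of complex I, had a log2 change of -0.03 ± 0.26 against GFP and -0.42 ± 0.26 against WT, neither called. Per 100 reads of MT-ND4, MT-ND4L had 7.35 and 12.8 in WT and 16.0 and 9.43 in GFP, compared with 8.77 and 8.21 in RBMXL3. This ratio overlapped between RBMXL3 and the controls (exact permutation test, two-sided, p = 0.467). In the summed TPM the same ratio was 104 and 151 in WT and 176 and 115 in GFP, against 102 and 94.9 in RBMXL3, which put RBMXL3 just below all 4 controls.

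**Figure D4:**
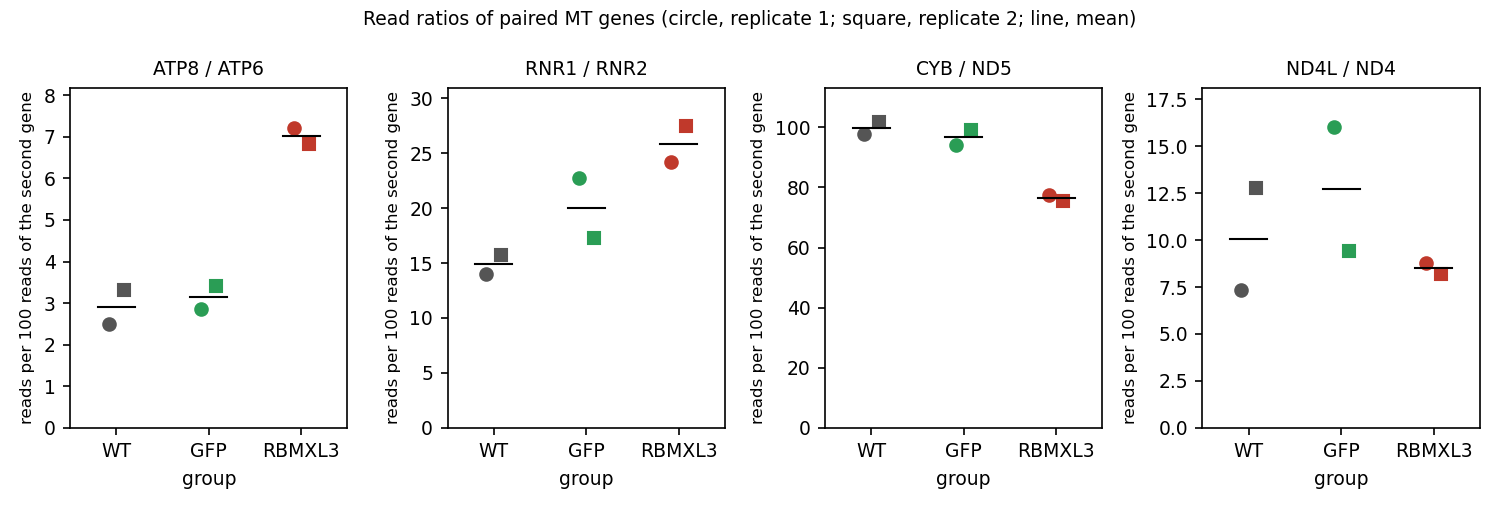
Reads of 1 mitochondrial gene per 100 reads of another in each library, for ATP8 over ATP6, RNR1 over RNR2, CYB over ND5 and ND4L over ND4, with the group mean as a line. In the first 3 panels the RBMXL3 libraries lie outside all 4 controls (for ATP8 over ATP6, 6.82 and 7.20 against at most 3.41), and in the last they overlap with them.

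The small rRNA MT-RNR1 (chrM:648-1601, plus strand) had normalised reads of 6867 and 5701 in WT and 4953 and 8687 in GFP, with 9808 and 9765 in RBMXL3. Both RBMXL3 libraries were above all controls. The log2 change was 0.64 ± 0.19 against WT (limma, adjusted p = 0.0245) and 0.58 ± 0.19 against GFP, just above the threshold (limma, adjusted p = 0.05001). The call against WT was lost with DESeq2 (adjusted p = 0.149), with no filter on low values (0.180), in the summed TPM (0.0630) and without any 1 of the WT or RBMXL3 libraries (0.0714 to 0.195). Leaving out GFP replicate 1 moved the change against GFP to 0.17, and leaving out GFP replicate 2 moved it to 0.98.

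The large rRNA MT-RNR2 (chrM:1671-3229, plus strand) had normalised reads of 48989 and 36145 in WT and 21801 and 50176 in GFP, against 40479 and 35530 in RBMXL3. The groups overlapped, and its log2 changes of 0.20 ± 0.28 against GFP and -0.15 ± 0.28 against WT were not called. Per 100 reads of MT-RNR2, MT-RNR1 had 14.0 and 15.8 in WT and 22.7 and 17.3 in GFP, compared with 24.2 and 27.5 in RBMXL3. RBMXL3 was highest, and both GFP libraries were above both WT libraries (exact permutation test of RBMXL3 against the 4 controls, two-sided, p = 0.0667). The ratio in the summed TPM had RBMXL3 highest as well, at 46.4 and 52.6 against 27.0 to 40.6 in the controls.

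MT-CYB (chrM:14747-15887, plus strand) encodes cytochrome b, the only complex III subunit of the mitochondrial genome. Its normalised reads were 39033 and 31283 in WT and 18167 and 34152 in GFP, with 21983 and 18943 in RBMXL3. RBMXL3 was below both WT libraries and between the GFP libraries. The log2 change was -0.78 ± 0.22 against WT (limma, adjusted p = 0.0203) and -0.29 ± 0.22 against GFP (limma, adjusted p = 0.386). The call against WT was lost with DESeq2 (adjusted p = 0.143), with no filter on low values (0.173), with the non-mitochondrial scaling (0.0519), in the summed TPM (0.261), without RBMXL3 replicate 2 (0.105) and without WT replicate 1 (0.204) or 2 (0.0580). Against GFP the change was -0.74 without GFP replicate 1 (limma, adjusted p = 0.00314) and 0.17 without GFP replicate 2.

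Relative to MT-ND5, the plus-strand mRNA gene before it, MT-CYB was lower in RBMXL3 than in any control. It had 97.8 and 102 reads per 100 of MT-ND5 in WT and 94.1 and 99.2 in GFP, against 77.4 and 75.4 in RBMXL3. The replicates of each group were close together, GFP included, and the mean of RBMXL3 was 0.778 times the mean of the controls (exact permutation test against the 4 controls, two-sided, p = 0.0667). The summed TPM gave 204 and 200 in WT and 170 and 201 in GFP, compared with 152 and 148 in RBMXL3, again lowest in RBMXL3. Other ratios of reads that were computed overlapped between RBMXL3 and the controls. They were MT-ND6 per 100 of MT-ND5 (exact permutation test, two-sided, p = 0.733) and MT-ND3 per 100 of MT-CO3 (p = 0.333). The p-values of the ratios were not adjusted for the number of ratios.

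The remaining complex I mRNAs did not pass the test in any comparison in the fit of all 6 libraries. MT-ND1, MT-ND2, MT-ND3 and MT-ND5 had log2 changes against GFP of 0.33, 0.30, 0.06 and 0.05, and against WT of -0.40, -0.32, -0.75 and -0.39. MT-ND3 had the widest spread, its normalised reads being 11909 and 6918 in WT and 2747 and 9722 in GFP, against 6181 and 4728 in RBMXL3. It was below both WT libraries in RBMXL3 but between the GFP libraries. Against GFP its sign turned with edgeR (-0.19), with DESeq2 (-0.18), without GFP replicate 1 (-0.84) and without RBMXL3 replicate 1 (-0.13). MT-ND1 (-0.29), MT-ND2 (-0.34) and MT-ND5 (-0.37) also turned without GFP replicate 1, and MT-ND5 was at 0.00 with edgeR.

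The cytochrome c oxidase mRNAs MT-CO1, MT-CO2 and MT-CO3 had log2 changes of 0.18, 0.03 and 0.21 against GFP and -0.42, -0.38 and -0.21 against WT, none called. MT-CO1 had normalised reads of 204212 and 150714 in WT and 77552 and 173900 in GFP, against 145244 and 118776 in RBMXL3. There RBMXL3 was below both WT libraries and between the GFP libraries. MT-CO2 against GFP was at -0.02 with edgeR and with DESeq2, and MT-CO3 against WT was at 0.04 in the summed TPM.

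Within the mitochondrial reads, rRNA took a larger share and complex III a smaller one in RBMXL3 than in any control. The rRNA share was 7.44% and 7.50% in WT and 8.26% and 8.69% in GFP, compared with 9.14% and 9.96% in RBMXL3. Its order was WT, GFP, RBMXL3 with no overlap, and the difference of RBMXL3 from the controls was 1.57 percentage points (exact permutation test, two-sided, p = 0.0667, adjusted over 8 makeup shares 0.133). The mRNA share is nearly its complement and was lowest in RBMXL3, at 90.9% and 90.0%.

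The complex III share, which is MT-CYB alone, was 5.20% and 5.61% in WT and 5.61% and 5.04% in GFP, with 3.99% and 4.16% in RBMXL3 (exact permutation test, two-sided, p = 0.0667, adjusted 0.133). RBMXL3 was below all controls, by 1.25 percentage points from GFP and 1.32 from WT. Complex I took 32.6% and 31.9% in WT and 32.4% and 31.7% in GFP, against 30.8% and 31.4% in RBMXL3. In reads this was a small difference, in which RBMXL3 was again below all controls (exact permutation test, p = 0.0667, adjusted 0.133). In the summed mitochondrial TPM the complex I share differed by -4.59 percentage points, at 31.2% and 31.7% in RBMXL3 against 35.0% to 37.3% in the controls. Complex IV took between 48.9% and 51.8% and complex V between 3.81% and 4.77% in all libraries, and both overlapped between RBMXL3 and the controls. As a share of the summed mitochondrial TPM, complex V was 13.5% and 11.9% in WT and 11.4% and 12.9% in GFP, compared with 16.9% and 16.3% in RBMXL3. There RBMXL3 was above all controls, by 4.22 percentage points on average, where the share of reads differed by -0.018. The difference in TPM lay in MT-ATP8, whose own share differed by 4.39 percentage points, while that of MT-ATP6 differed by -0.17. No share could reach an adjusted p under 0.05 in this design.

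MT-ND6 encodes a complex I subunit and lies on the minus strand (chrM:14149-14673). Its normalised reads were 336 and 320 in WT and 223 and 679 in GFP, compared with 223 and 320 in RBMXL3. GFP replicate 2 was the highest library, the groups overlapped, and the log2 changes of -0.52 ± 0.34 against GFP and -0.27 ± 0.34 against WT were not called. In the summed TPM both turned positive, at 0.11 and 0.17.

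The tRNA genes held very few reads. In total they had 184 and 202 reads in WT and 67 and 162 in GFP, with 56 and 76 in RBMXL3, which was 0.021% and 0.030%, 0.019% and 0.025%, and 0.013% and 0.018% of the mitochondrial reads. The RBMXL3 libraries had the lowest shares (exact permutation test, two-sided, p = 0.133, adjusted 0.213). Of the 22 tRNA genes, 10 had 0 reads in every library, a count that leaves room for as many as 3 reads, and 9 more averaged under 10 reads. The 10 were MT-TV, MT-TL1, MT-TN, MT-TC, MT-TK, MT-TG, MT-TR, MT-TH, MT-TS2 and MT-TL2, where the letter after MT-T is the one-letter code of the amino acid delivered. The 9 were MT-TF, MT-TI, MT-TQ, MT-TM, MT-TW, MT-TA, MT-TY, MT-TD and MT-TE, with 0 to 16 reads a library. Among them MT-TY, MT-TQ and MT-TW had fewer reads in both RBMXL3 libraries, which were also the shallowest, than in any control. These genes were singled out after their values were seen and lay below the filter of the test. In normalised reads MT-TY and MT-TQ stayed below all controls, and MT-TW overlapped (6.44 and 4.28 against 5.08 to 13.8). As a share of the mitochondrial reads only MT-TY of these stayed below. Of all tested genes, 23.6% lay below all controls in normalised reads. MT-TY, the tyrosine tRNA, had 16 and 10 reads in WT and 7 and 7 in GFP, against 0 and 2 in RBMXL3. MT-TQ, the glutamine tRNA, had 7 and 11 and then 5 and 11, against 1 and 4. All 22 were listed at 0 TPM in the transcript table.

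The 3 tRNA genes with a mean of at least 10 reads were MT-TT, MT-TP and MT-TS1. MT-TT, the threonine tRNA, directly follows MT-CYB on the plus strand (chrM:15888-15953). MT-TP, the proline tRNA, lies next to it on the minus strand (chrM:15956-16023). Their sequences in GENCODE 29 (GRCh38), 5′ to 3′ on their own strands and with no capitals, show how short these members are.
MT-TT: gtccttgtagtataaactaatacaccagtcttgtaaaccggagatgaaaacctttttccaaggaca
MT-TP: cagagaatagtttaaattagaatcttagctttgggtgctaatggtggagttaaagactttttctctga
MT-TT had 101 and 108 reads in WT and 29 and 74 in GFP, against 37 and 42 in RBMXL3. RBMXL3 was below WT and between the GFP libraries, and the log2 change was -0.04 ± 0.25 against GFP and -0.67 ± 0.25 against WT (limma, adjusted p = 0.935 and 0.0618). It passed the test against WT without GFP replicate 1 (limma, adjusted p = 0.00367) or 2 (0.00429).

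MT-TP had 20 and 42 reads in WT and 13 and 19 in GFP, compared with 7 and 16 in RBMXL3. MT-TS1 is a serine tRNA on the minus strand (chrM:7446-7514), and its last base lies next to the last base of MT-CO1. It had 28 and 17 reads in WT and 1 and 28 in GFP, with 4 and 5 in RBMXL3. For both genes the groups of GFP and RBMXL3 overlapped, and neither was tested because of the low reads.

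The 8 tRNA genes of the minus strand together had 77 and 82 reads in WT and 27 and 70 in GFP, against 14 and 29 in RBMXL3, and the 14 of the plus strand had 107 and 120, 40 and 92, and 42 and 47. As a share of the mitochondrial reads, all minus-strand members, MT-ND6 included, overlapped between RBMXL3 (0.044% and 0.077%) and the controls (0.053% to 0.111%). The exact permutation test, two-sided, gave p = 0.467 (adjusted 0.533). The reads of 1 gene annotated on the strand opposite GAPDH (ENSG00000269968) also differed in RBMXL3. Whether they were reads on the wrong strand or transcripts of that gene was not tested. For each 100 reads of GAPDH, this gene had 0.657 and 0.490 reads in WT and 0.350 and 0.653 in GFP, compared with 0.0184 and 0.0273 in RBMXL3. It was lower in RBMXL3 than in any control, and its part in the minus-strand values of MT-ND6 and the tRNAs was not tested. Whether the authors counted by strand is not given in the sources used here.

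Copies of mitochondrial sequence in the nuclear genome can share reads with the members. Of 404 such copies in the gene table, 26 had a read and 3 averaged at least 100: MTATP6P1 (chr1:633696-634376), MTND1P23 (chr1:629062-629433) and MTCO1P12 (chr1:631074-632616), all in GRCh38. Their GENCODE 29 sequences matched MT-ATP6, MT-ND1 and MT-CO1 at 98.5%, 99.1% and 98.7% of the aligned bases. The aligned bases covered the whole of MT-ATP6 and MT-CO1 but only 36.8% of MT-ND1. MTATP6P1 had normalised reads of 6444 and 4296 in WT and 2657 and 5682 in GFP, with 5044 and 3884 in RBMXL3, and GFP replicate 1 was lowest as in MT-ATP6. None of the 3 was called in any comparison (limma, adjusted p from 0.284 to 0.665). All copies together held 1.00 to 1.18 reads per 100 reads of the members, and how reads were divided between members and copies is uncertain.

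The nuclear genes that copy and transcribe the mitochondrial genome included 3 of 18 that passed the test against GFP and WT alike, 1 of them higher and 2 lower, which is 16.7% beside 13.7% of all genes. TFAM, which packs the mitochondrial DNA and helps start its transcription, rose by 0.64 ± 0.13 (SE) against GFP and 0.42 ± 0.13 against WT on the log2 scale (limma, adjusted p = 0.00585 and 0.0302). In the summed TPM it was at -0.02 and -0.19. SSBP1, which coats single-stranded mitochondrial DNA, had normalised reads of 3077 and 2935 in WT and 2902 and 3284 in GFP, against 2070 and 1998 in RBMXL3. It lay below all controls, with a log2 change of -0.60 against GFP and -0.56 against WT. TWNK, the replicative helicase, fell by 0.54 against GFP (limma, adjusted p = 0.00994) and by 0.37 against WT (adjusted p = 0.0398). The mitochondrial RNA polymerase POLRMT was called against WT (0.40) and not against GFP (0.07), and TFB2M, an initiation factor, and TEFM, an elongation factor, were not called in either.

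Of the genes that process, stabilise, modify or destroy mitochondrial RNA, 8 of 39 tested were called the same way against GFP and WT, with 2 higher and 6 lower (20.5%, beside 13.7% of all genes). The median of the list was -0.10 against GFP and -0.04 against WT, beside 0.00 and -0.01 over all genes. SLIRP, which with LRPPRC binds and stabilises the mRNAs, had normalised reads of 3134 and 3363 in WT and 3118 and 3960 in GFP, compared with 2057 and 1860 in RBMXL3. It lay below all controls, and fell by 0.84 ± 0.12 against GFP and 0.72 ± 0.12 against WT on the log2 scale (limma, adjusted p = 0.000865 and 0.00101; 0.127 and 0.0708 in the summed TPM). LRPPRC was called against WT (-0.41, adjusted p = 0.0159 by limma) and not against GFP (-0.30, adjusted p = 0.0713).

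Both parts of the RNA-degrading complex fell, PNPT1 by 0.37 and 0.53 and the helicase SUPV3L1 by 0.36 and 0.45 on the log2 scale against GFP and WT. TRMT61B, an RNA methyltransferase, rose by 0.42 and 0.46, and GTPBP3, a tRNA-modifying enzyme, by 0.40 and 0.40, although TRMT61B against GFP was at -0.03 in the summed TPM. The other 3 called genes, chosen for naming after their values were seen, were lower: ELAC2, which cuts the 3′ ends of tRNAs (-0.39 and -0.35), FASTKD5, which acts at junctions without a tRNA (-0.31 and -0.35, and 0.01 against GFP in the summed TPM), and GRSF1, an RNA granule protein (-0.31 and -0.29). With the non-mitochondrial scaling 5 genes of this list were called against both controls, and in the summed TPM 1 was. Without RBMXL3 replicate 1 or 2 the count was 1, and without WT replicate 1 or 2 it was 3; for the transcription list it was 1 without any of these 4 libraries.

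None of the 13 biogenesis regulators was called against both controls by limma (1 had an unadjusted p under 0.05 in both), nor by edgeR or DESeq2 (0 each), beside 13.7% of all genes. Against GFP 1 of them was called higher (10.5% of all genes), and against WT 1 was called higher (14.6%) and 3 lower (15.3%). Of 16 tested genes of the mitochondrial and integrated stress responses, 3 were called against both, all higher (18.8%, beside 13.7% of all genes called and 6.88% called higher). GDF15, a secreted stress signal, measured 99.9 ± 17.9 normalised reads in WT, 241 ± 46.3 in GFP and 355 ± 24.6 in RBMXL3 (mean ± SD, n = 2). CHAC1, which breaks down glutathione, measured 212 ± 22.8, 364 ± 22.8 and 538 ± 43.6. Both were also called in GFP against WT, by 1.09 and 0.72 on the log2 scale (adjusted p = 0.0110 and 0.0164 by limma), and TRIB3, a pseudokinase of the stress response, rose by 0.36 against GFP and 0.75 against WT. The count against both controls was 0 without RBMXL3 replicate 1 or 2, and GDF15 lost its call against GFP without GFP replicate 1 (limma, adjusted p = 0.144).

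Scaling the recovered reads by the non-mitochondrial total also dropped the authors' factor for each library. With that factor the normalised totals were 22770075 and 22481146 in RBMXL3 and 24743248 and 24453549 in GFP. The parts of the dropped factor and of the mitochondrial reads in the shifts below were not tested. This scaling moved the median of all genes in RBMXL3 against GFP from 0.00 to 0.11, and the summed TPM moved it to 0.13. The median of the members then became 0.18 and 0.49, which is 0.07 and 0.37 above that of all genes. The split of all genes called moved with it, from 1503 higher and 1483 lower against GFP to 2466 and 776 with the non-mitochondrial scaling and to 779 and 210 in the summed TPM. Against WT it moved from 2085 higher and 2186 lower to 2865 and 1336, and to 997 and 647. Against both controls it moved from 984 higher and 980 lower to 1628 and 508, and to 495 and 161. The members called against both controls with the non-mitochondrial scaling were 2, MT-ATP8 and MT-RNR1, both higher.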

How the data were processed

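Libraries of 6 TCam-2 samples were made with a stranded mRNA kit, per the labels' protocols. Trim Galore 0.6.10, STAR 2.7.11a, DESeq2 and Salmon 1.10.2, with the build GRCh38 or hg38, are named in the submitters' processing notes; the counter, annotation and strand setting are not given in the sources used here. The deposited gene table holds a normalised signal: the authors' read numbers divided by 1 factor per library, and 100% of its 145320 nonzero values came out as whole reads (tolerance 0.001). The deposited transcript table holds TPM, which keeps no depth; 80.0% of its transcripts had a gene in GENCODE 29, and their TPM was summed per gene. The gene table was named for CPM, as the planned test assumed, so its values were divided by 1 common factor, 23.9, and keep the authors' scaling. No column belonged to another sample (0).

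The 14292 genes that reached a rescaled value of 1 in 2 or more libraries were tested as log2(value + 1) with limma 3.58.1 (R 4.3.3). The fit had a term for each group, a mean-variance trend and no other term. A gene was called where its two-sided p, adjusted over all genes by Benjamini-Hochberg, was under 0.05. Fold changes on the log2(value + 1) scale understate changes of low genes. As a count test, edgeR 4.0.16 on the recovered reads called 2848 genes against GFP, 4157 against WT and 474 between the controls, beside 2986, 4271 and 524 by limma. DESeq2 1.42.0, other filters and pseudocounts, a replicate block and leaving out each library were alternatives. Another scaled the recovered reads by the non-mitochondrial total in place of the authors' factors. The read numbers of the replicates of each group differed, by any amount, in 39.2% to 41.2% of the listed genes, so none was deposited again as another. The labels do not say what a replicate number marks, and the deviations of same-numbered libraries correlated at -0.16, 0.03 and -0.09, so the libraries were treated as unpaired.

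All members were named; tRNA genes with a mean of at least 10 reads, mRNAs and rRNAs were described singly. From each list the rule took up to 5 genes called against both controls with the largest smaller change, plus POLRMT, TFAM, TFB2M, TEFM, LRPPRC, SLIRP, PNPT1 and SUPV3L1. The members and lists were chosen with earlier results of these data known. The floor of 3 reads covers counting error alone, as PCR copies cannot be told from separate molecules here.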

Additional observations from a re-analysis of the deposited data

How the results depend on the processing

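With 2 libraries a group, 1 library decided many values, and the cause was not tested. Over all genes, the calls in RBMXL3 against GFP, RBMXL3 against WT, GFP against WT and both controls were 950, 2327, 0 and 673 with no filter on low values and 989, 1644, 0 and 656 in the summed TPM. GFP against WT gave 346 with the non-mitochondrial scaling. The members called against GFP, WT and both controls were 0, 1 and 0 with no filter (MT-TY, lower against WT at -0.48, adjusted p = 0.0312 by limma, and below the filter otherwise), 1, 1 and 1 with DESeq2, and 0, 0 and 0 in the summed TPM. The replicate block gave 2, 5 and 2, with MT-TT added against WT (adjusted p = 0.0490 by limma), and lowered GFP against WT to 191 genes over all and the RNA processing list to 5 of 8. The block changed the call of no other member, and replicate numbers were shared only as names.

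Of the member changes under alternatives other than leaving out a library, 341 kept direction and call, 18 lost the call, 2 gained it and 17 turned sign. In the summed TPM these turned against GFP in MT-ATP6 (0.36), MT-ND4 (0.36), MT-ND6 (0.11) and MT-CYB (0.11), against WT in MT-RNR2 (0.11), MT-CO3 (0.037) and MT-ND6 (0.17), and in GFP against WT in MT-RNR1 (-0.073). Against GFP, the non-mitochondrial scaling turned MT-ATP6 (0.054), MT-ND4 (0.095) and MT-TT (0.042), the pseudocount of 0.1 turned MT-TT (0.0025), edgeR turned MT-CO2 (-0.023), MT-ND3 (-0.19) and MT-ND5 (-0.000665), and DESeq2 turned MT-CO2 (-0.019) and MT-ND3 (-0.18). TFAM (-0.023 against GFP and -0.19 against WT), TRMT61B (-0.028) and FASTKD5 (0.00757, both against GFP) turned in the summed TPM, and TEFM against WT turned with the non-mitochondrial scaling (0.024). The transcription list gave 1 call with no filter and 1 in the summed TPM, the processing list 1, 5 and 1 with no filter, non-mitochondrial scaling and summed TPM, the biogenesis list 1 with a mean of at least 5, and the stress list 0 with no filter. In the summed TPM the mitochondrial share in RBMXL3 minus the controls was 0.344 and the complex V share 4.22 percentage points.

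Leaving out 1 library at a time gave 679 to 4304 genes against GFP, 1428 to 6155 against WT, 0 to 2770 in GFP against WT and 445 to 2710 against both. Member calls ran from 1 to 12, 0 to 10, 0 to 14 and 0 to 6. The lists ran from 1 to 5 (transcription), 1 to 11 (processing) and 0 to 3 (stress). Changes against GFP ran from -0.40 to 0.80 (MT-RNR2), -0.29 to 0.94 (MT-ND1), -0.34 to 0.95 (MT-ND2), -0.40 to 0.76 (MT-CO1), -0.42 to 0.49 (MT-CO2), -0.53 to 0.39 (MT-ATP6), -0.41 to 0.84 (MT-CO3), -0.84 to 0.97 (MT-ND3), -0.54 to 0.48 (MT-ND4), -0.37 to 0.47 (MT-ND5), -1.27 to 0.24 (MT-ND6), -0.74 to 0.17 (MT-CYB), -0.54 to 0.47 (MT-TT), -0.31 to 0.42 (TFB2M) and -0.31 to 0.47 (TEFM). Against WT they ran from -0.37 to 0.069 (MT-RNR2), -0.66 to 0.011 (MT-ND2), -0.47 to 0.053 (MT-CO3) and -0.20 to 0.067 (TEFM). In GFP against WT they ran from -0.34 to 0.47 (MT-RNR1), -0.95 to 0.25 (MT-RNR2), -1.27 to 0.020 (MT-ND2), -0.86 to 0.046 (MT-CO2), -0.68 to 0.45 (MT-ATP8), -0.71 to 0.21 (MT-ATP6), -1.05 to 0.20 (MT-CO3), -1.72 to 0.10 (MT-ND3), -0.24 to 0.13 (MT-ND4L), -0.90 to 0.11 (MT-ND4) and -0.51 to 1.00 (MT-ND6). The mitochondrial share ran from -0.548 to 0.911 percentage points in RBMXL3 minus GFP, from -1.36 to 0.0945 in GFP minus WT and from -0.485 to 0.086 in RBMXL3 minus the controls, and the complex V share from -0.156 to 0.161. Of the 22 tRNA genes 1 passed the filter on low values and was tested.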
